A study of Mus musculus with 20 samples.

Results

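Neurogenic progenitors are retinal cells on their way from the dividing progenitor pool to becoming neurons. The cells described here are those the depositors annotated as Neurogenics, 9239 of 79009 cells, or 11.7%, from all 20 libraries. A library held between 94 (P5 MEIS1 1) and 1733 (P2 control 1) of them. Single-cell mRNA was counted as unique molecular identifiers (UMIs), that is, tagged molecules, in cultured retina (explants) from wild-type CD1 mice. Electroporation delivered GFP alone (control), MEIS1, MEIS2, or MEIS1 and MEIS2 at 50:50 (here the combination), and the stated age was postnatal day 2 (P2) or 5 (P5). At each age there were 4 control libraries and 2 of each construct group, 8 groups in all. All groups, controls included, carried a pCAGIG plasmid, per the series design text, whose CAG promoter is broadly active and not restricted to a cell type. GFP-positive cells were isolated before capture. MEIS1 and MEIS2 are related homeodomain transcription factors, and the series title names temporal patterning and neurogenesis as its subject. The design text gives 2 and 5 as days of treatment, so age and time with the construct cannot be told apart. That text also names NR2F1 and NR2F2 where the sample labels name MEIS1 and MEIS2. The treatment label names MEIS1 for all single-construct libraries at P2 and MEIS2 for all at P5, so groups follow the library titles, which name both at each age. The labels do not show whether libraries of a group came from separate animals, so p-values measure the spread between libraries, which may be technical.

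In the postnatal mouse retina, progenitors still produce rods, bipolar cells and late amacrine cells, and at the end Müller glia. A cell that enters neurogenesis raises basic helix-loop-helix (bHLH) factors such as Neurog2 and Olig2 and presents Delta ligands, while Notch signalling through Hes genes holds its neighbours in the progenitor state. Among the young neurons that express the homeobox gene Otx2, Prdm1 (Blimp1) is known to favour the photoreceptor fate over the bipolar fate.

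Several libraries stood apart. Cell barcodes carry a prefix that equals the library title in 10 of 20 libraries and differs in 10. In 2 of these the prefix names another group: cells of P2 control 1 carry a combination prefix and cells of P2 combination 2 a control prefix. The sample column of the deposited cell table was followed, and values with the prefixes are given where they differ. P2 MEIS2 2 had a median of 1009 UMIs per neurogenic cell against 3938 to 21168 in the others, and 10.6% of its neurogenic UMIs came from Malat1, a nuclear RNA, against 2.15% to 3.98%. Of 78261 barcode sequences 744 occurred in more than 1 library, and 168 neurogenic cells carried such a barcode. All 79009 cells held a GFP UMI.

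The electroporated genes were read first, as CPM, the UMIs of a gene scaled to the total summed over the neurogenic cells of a library. Meis1 stood at 2797 and 2522 CPM with MEIS1 at P2 and at 2061 and 2019.8 CPM at P5, against 121 to 309 CPM in the 8 controls. Meis2 stood at 1791 and 1579.5 CPM with MEIS2 at P2, against 279 to 581 CPM in controls, and at 709 and 664 CPM at P5, against 96.2 to 320.3 CPM. The combination libraries held 969 and 790.3 CPM of Meis1 and 1255 and 1381 CPM of Meis2 at P2. At P5 they held 1200.3 and 354 CPM of Meis1 and 2271 and 597 CPM of Meis2. The library labelled P2 combination 2 thus lay above all P2 controls for both genes, and P2 control 1 had the highest Meis1 among the controls. GFP ran from 12573 to 47121 CPM in P2 controls, with P2 control 1 the highest. In P2 construct libraries it ran from 2772 to 10308 CPM, with 3245 CPM in P2 combination 2. Whether title or prefix is right was not tested. A UMI does not separate the electroporated transcript from the cell's own.

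The annotation was checked against 5 marker genes, with no test because the types were made from the same cells. Olig2, Hes6 and Dll3 had a higher mean level in Neurogenics than in any other type, and Neurog2 and Gadd45a did not. Olig2, a bHLH factor of neurogenic cells, averaged 25.6 ± 10.1 CPM (SD, n = 20) against 7.87 ± 8.06 CPM in progenitors, and was higher in 20 of 20 libraries. Dll3, a Delta protein that acts within the cell, averaged 95.5 ± 64.9 CPM against 25.8 ± 24.2 CPM in rods, the type with the next highest mean CPM, and was higher in 20 of 20. Hes6, a Hes protein that promotes differentiation, averaged 542 ± 139 CPM against 356 ± 220.0 CPM in progenitors and was higher in 16 of 20. Neurogenic cells were thus above the types compared in most or all libraries for these genes. Neurog2 averaged 71.6 ± 39.7 CPM, above progenitors in 19 of 20 libraries and above amacrine cells in 15 of 20. Starburst amacrine cells, with at least 20 cells in 2 libraries, held 223 ± 97.7 CPM. Gadd45a, a gene of growth arrest, averaged 54.9 ± 21.5 CPM against 164 ± 113 CPM in amacrine cells, and the neurogenic level was the higher in 4 of 20.

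**Figure D1:**
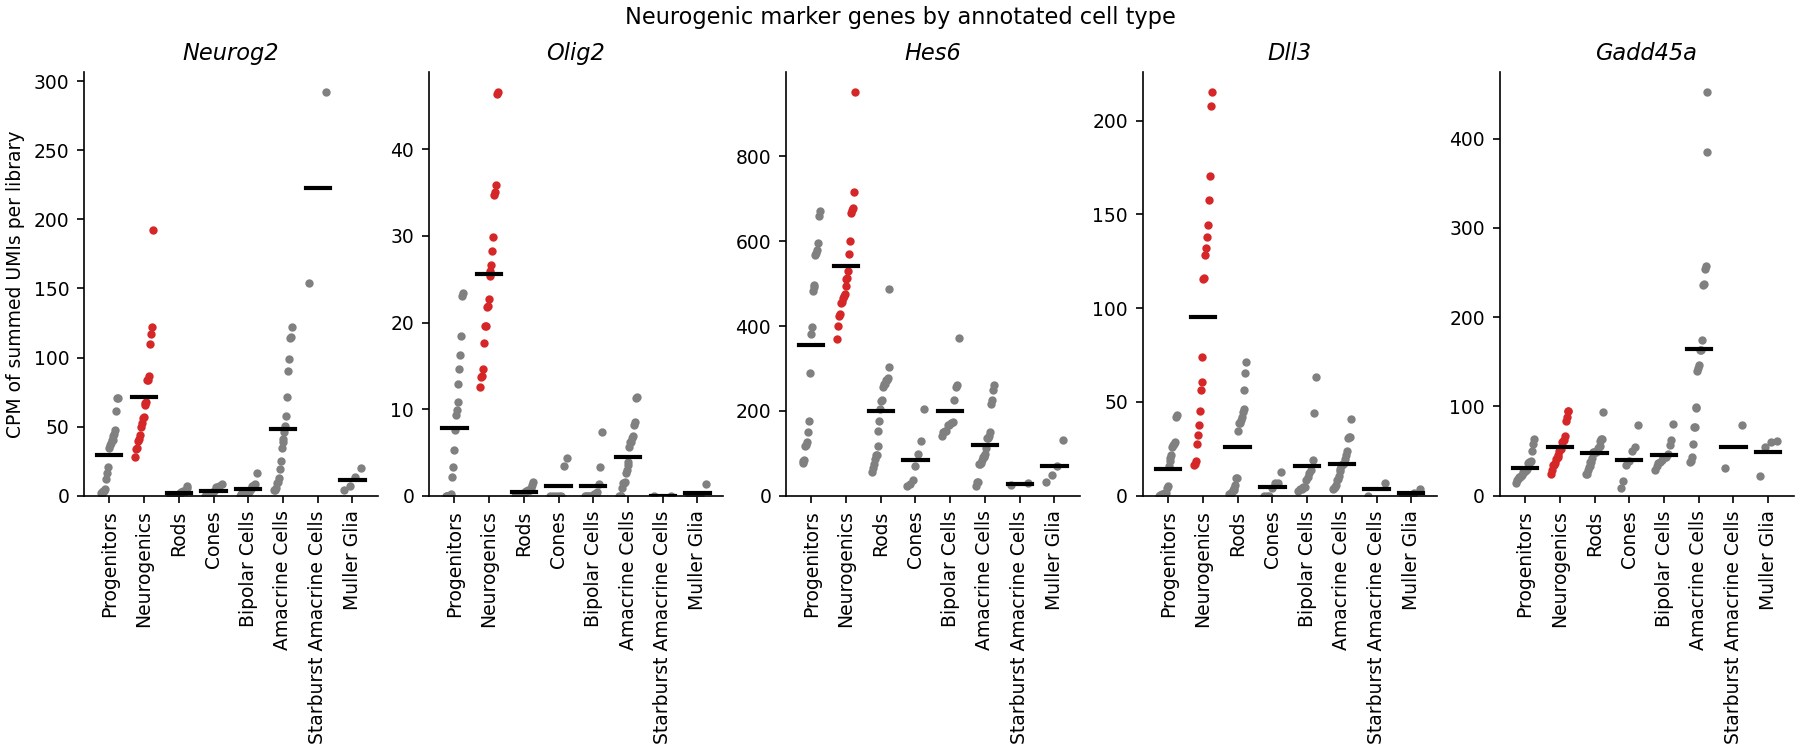
CPM of summed UMIs (y axis) of the 5 marker genes in each annotated type (x axis); each point is a library with at least 20 cells of the type. Olig2, Hes6 and Dll3 have their highest mean in Neurogenics, whereas Neurog2 is higher in starburst amacrine cells and Gadd45a in amacrine cells.

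Proneural bHLH factors bind the E-box, CANNTG. Hes6 and Dll3 are among the markers with their highest mean in Neurogenics. Atoh7, a bHLH gene, had the largest fall with age among genes whose mean log2 CPM was 5 or more. The 250 bases before an annotated start of these 3 genes are shown. They come from RefSeq on GRCm38.p6 (mm10), run 5′ to 3′ on the gene's strand, and have E-boxes in capitals.
Hes6, chr1:91414039-91414288, minus strand: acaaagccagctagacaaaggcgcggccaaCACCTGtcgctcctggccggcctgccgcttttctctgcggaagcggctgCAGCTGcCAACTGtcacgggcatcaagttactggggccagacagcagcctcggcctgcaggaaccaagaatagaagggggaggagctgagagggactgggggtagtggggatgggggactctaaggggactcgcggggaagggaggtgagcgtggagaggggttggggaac
Dll3, chr7:28301786-28302035, minus strand: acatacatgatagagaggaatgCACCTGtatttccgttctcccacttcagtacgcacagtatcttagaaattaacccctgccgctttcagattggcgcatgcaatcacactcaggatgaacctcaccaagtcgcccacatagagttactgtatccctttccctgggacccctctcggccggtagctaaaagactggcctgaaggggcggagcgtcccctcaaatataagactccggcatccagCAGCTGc
Atoh7, chr10:63099535-63099784, plus strand: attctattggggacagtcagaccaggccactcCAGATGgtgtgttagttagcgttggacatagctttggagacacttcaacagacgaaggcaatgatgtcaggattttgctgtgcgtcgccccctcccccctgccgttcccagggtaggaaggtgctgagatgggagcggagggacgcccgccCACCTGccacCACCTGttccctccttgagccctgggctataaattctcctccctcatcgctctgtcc
Hes6 has 2 annotated starts in the table, and the window of the upstream one is shown. It holds 3 E-boxes and that of the other start 1, while the Dll3 window holds 2 and the Atoh7 window 3. The motif is the same on both strands, and 66.2% of 32851 promoters of this length hold it. CAGCTG, present in both Hes6 windows and that of Dll3, occurs in 13.0%. The windows of Neurog2 and Olig2 hold no CANNTG and that of Gadd45a holds 1. A match describes letters, not binding.

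Beyond the markers, the genes that set Neurogenics furthest above the next type included Notch pathway and transcription factor genes. They were ranked by the difference in mean log2(CPM + 1) to the next type on that scale, among genes at 50 CPM or more (for Dll3 amacrine cells, at 16.9 CPM). Mybl1, a Myb family transcription factor, came first, at 465 ± 207 CPM against 58.8 in progenitors, higher in 20 of 20 libraries. Rgs13, a regulator of G-protein signalling, stood at 71.2 ± 19.8 CPM against 8.68 in progenitors (20 of 20). Atoh7, known for ganglion cell competence, stood at 82.5 ± 82.8 CPM against 14.5 in rods, and its SD, as large as the mean, is taken up with age below. The other members of the leading 15 were Dll3, 3110035E14Rik, Nxn, Mfng, Cthrc1, Gadd45g, Miat, Dll1, Cmtm7, Zc3h12c, Enox2 and Cd59a. Of these, Dll1 is a Delta ligand (62.0 ± 16.7 CPM against 32.8 in progenitors, 19 of 20 libraries). Mfng is a fringe enzyme that modifies Notch (72.1 ± 29.5 CPM against 21.4 in bipolar cells, 12 of 12), and Gadd45g a growth arrest gene (225 ± 88.0 CPM against 93.8 in amacrine cells, 19 of 20).

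Against progenitors, division, glial and Notch target genes were low, and Otx2, Crx, Prdm1 and bipolar genes high. Of 13482 genes at 5 CPM or more in some type, 6.07% were at least 2-fold higher in Neurogenics and 9.4% at least 2-fold lower. At least 2-fold higher were 13 of 17 genes of the neurogenic state list, 7 of 10 proneural bHLH genes, 3 of 5 Notch ligands, 3 of 3 regulators shared by photoreceptor and bipolar precursors (Otx2, Crx, Prdm1) and 8 of 14 bipolar genes. Other fate lists gave 1 of 16 rod genes, 2 of 9 cone genes, 6 of 15 genes of the wider amacrine list and 0 of 4 amacrine regulators. At least 2-fold lower were 18 of 19 genes of G2 and mitosis, 14 of 19 of S phase, 12 of 19 progenitor genes, 7 of 8 Notch targets and 9 of 9 Müller glia genes. Against rods, 15 of 16 rod genes were at least 2-fold lower (background 9.51%) and 15 of 19 progenitor genes at least 2-fold higher (background 11.2%). Against bipolar cells, 12 of 14 bipolar genes were at least 2-fold lower (background 6.75%) and 13 of 17 neurogenic state genes higher (background 8.2%). Bipolar means came from the 12 libraries with at least 20 such cells and neurogenic means from all 20. The means thus cover different libraries, and the part of age in this comparison was not tested. Otx2, Crx and Prdm1 did not set them apart from bipolar cells (median log2 difference 0.17). Against amacrine cells, 13 of 15 amacrine genes were lower (background 11.3%) and 12 of 17 neurogenic state genes higher (background 7.95%). These lists overlap with what defined the types, so the counts describe and test nothing. Some genes stand in several lists, here and below, so the counts of different lists are not independent.

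The annotation joins 2 of the depositors' clusters, numbers 4 (6406 cells) and 11 (2833 cells). Cluster 11 was high in progenitor, glial and Notch target transcripts. Hes1, a Notch target, averaged 299 CPM there and 10.4 CPM in cluster 4 (higher in 20 of 20 libraries). The D cyclin Ccnd1 averaged 433 and 26.5 CPM (20 of 20). Of the Notch targets 8 of 8, of the progenitor genes 14 of 19 and of the Müller glia genes 7 of 8 were at least 2-fold higher in cluster 11, where 6.38% of 10899 genes were. The proneural genes Neurog2 (152 and 37.4 CPM, 18 of 20) and Olig2 (49.3 and 17.8 CPM, 18 of 20) lay on the same side, as did the ligand Dll1 (117 and 41.0 CPM, 20 of 20). The neurogenic state list as a whole did not separate the clusters: 3 of 17 genes were at least 2-fold higher in cluster 11 and 2 of 17 in cluster 4.

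Cluster 4 was high in bipolar genes and in Otx2, Crx and Prdm1. Neurod4, a bHLH factor of bipolar and photoreceptor precursors, averaged 1411 CPM there and 224 CPM in cluster 11. Otx2 averaged 1212 and 638 CPM, the photoreceptor factor Crx 358 and 114 CPM, and Atoh7 106 and 13.4 CPM. Each of these 4 genes was higher in cluster 4 in 20 of 20 libraries. Of the bipolar genes 8 of 10 and of Otx2, Crx and Prdm1 3 of 3 were at least 2-fold higher in cluster 4, where 5.96% of genes were. The marker Dll3 was at like levels in both (94.5 and 106 CPM). Median depth was 10082 UMIs in cluster 4 and 11969 in cluster 11, and its part in these differences was not tested.

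**Figure D2:**
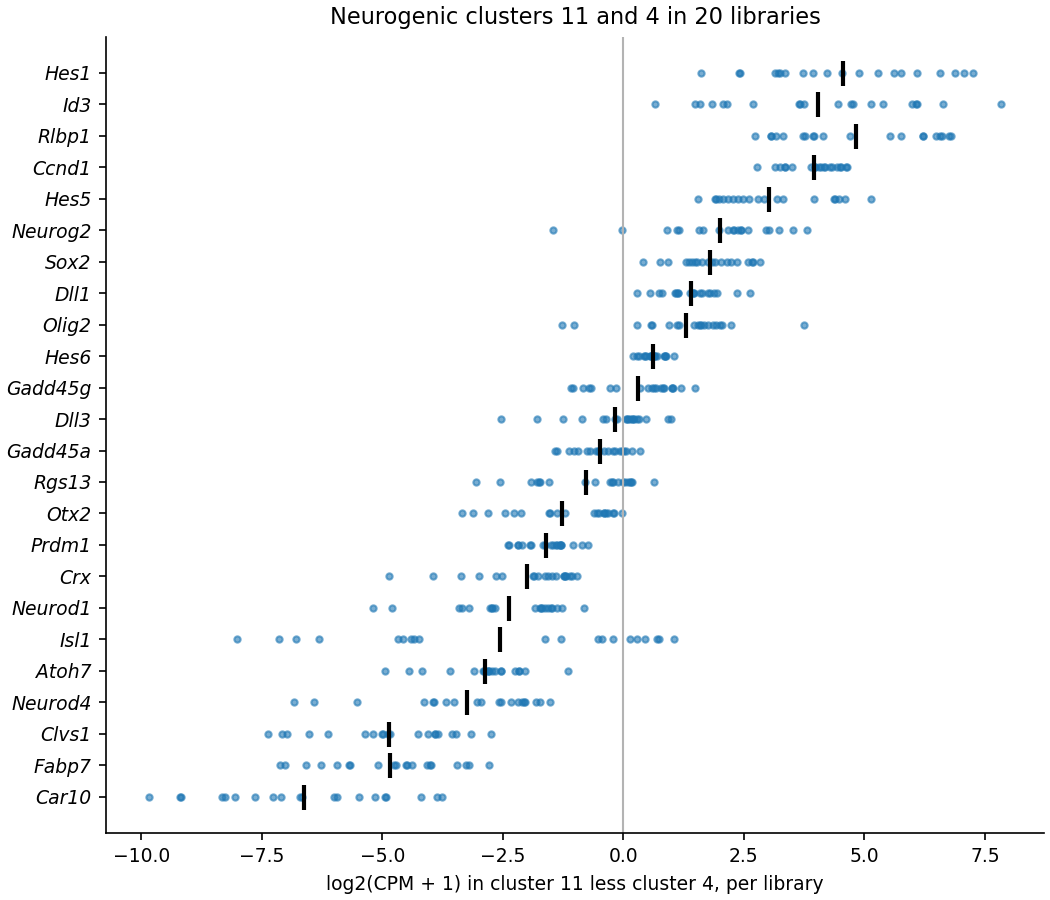
Difference in log2(CPM + 1) between clusters 11 and 4 for named genes, with a point for each library. Hes1, Ccnd1 and Dll1 are higher in cluster 11 in 20 of 20 libraries, and Neurod4, Crx and Atoh7 are higher in cluster 4 in 20 of 20.

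Fate regulators were read in single cells after thinning each to 2000 UMIs, which kept 8892 cells, and of the cells left out 218 came from P2 MEIS2 2. Otx2, Crx or Prdm1 without any amacrine regulator (Ptf1a, Prdm13, Tfap2a, Tfap2b) were seen in 6993 cells (78.6%). Amacrine regulators alone were seen in 54 (0.607%), both in 296 (3.33%) and neither in 1549 (17.4%). At the edge of the classes, 1096 of the cells with Otx2, Crx or Prdm1 and 37 of the cells with amacrine regulators held exactly 1 such UMI. Otx2, Crx or Prdm1 were seen in 82.0% of neurogenic cells, 85.9% of bipolar cells, 95.4% of rods, 19.1% of amacrine cells and 17.6% of progenitors, so the class does not separate photoreceptor from bipolar precursors. Cells with 2 or more UMIs of G2 and mitosis genes numbered 85 (0.956%). Any amacrine UMI was seen in 3.94% of neurogenic cells and 6.08% of rods, which should lack these genes. Median depth before thinning was 10815 and 5336 UMIs. The summed share was thus not above that of rods. In deeper types it was 3.84% of progenitors, 1.70% of bipolar cells and 1.92% of Müller glia (12744, 12107 and 20443.5 UMIs). The part of background was not tested. Ptf1a alone was seen in 0.866% of neurogenic cells and 0.180% of rods. The G2 and mitosis share was 0.740% in rods and 24.8% in progenitors. Neither minority reached 20 cells in enough libraries, so the planned comparisons of cells with amacrine regulators and of G2 and mitosis positive cells could not be fitted in thinned cells.

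Without thinning, 16 libraries held at least 20 G2 and mitosis positive and 20 negative cells, and 45 of 10011 genes outside that list passed by edgeR with the library as a term (0.45%), 27 higher and 18 lower in positive cells. Of the 8 listed Notch targets Id1 (0.84 ± 0.16, log2 fold change ± SE) and Hes5 (0.44 ± 0.08) passed, both higher, and the others did not pass. The receptor Notch1 (0.22 ± 0.05) and Sox11, a factor of immature neurons (0.45 ± 0.08), were also higher. Pcdh17, a protocadherin, had the largest difference (1.63 ± 0.16). Isl1 (-0.61 ± 0.11) and the glial gene Apoe (-0.37 ± 0.08) were lower. Ribosomal protein genes and mitochondrial genes were also among the 18 lower, at -0.14 to -0.16. Positive cells were the deeper here, with a median of 13867 UMIs against 9260.5, and the part of depth in these differences was not tested.

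Regulators were then counted in pairs within thinned cells, against the number that independence within each library gives. These counts carry no test, since cells of a library share its depth. The expectation also pools the clusters of a library. Neurog2 and Olig2 were higher in the cluster with high Notch targets, and Otx2, Crx and Prdm1 in that with high bipolar genes. Such differences between clusters can by themselves move a pair above or below expectation. Their part was not tested, so the counts do not show pairing or exclusion within a cluster. Neurog2 and Olig2 were seen together in 105 cells where 44.0 were expected, but only 2 libraries had at least 5 expected cells. Neurog2 and Prdm1 met in 168 cells where 257 were expected, below expectation in 11 of 12 libraries with at least 5 expected cells. Crx and Prdm1 met in 1165 where 931 were expected, above in 13 of 14. Otx2 and Crx met in 2885 where 2581 were expected, above in 18 of 18. The pair Prdm1 and Isl1, a LIM homeobox gene of ON bipolar cells, met in 106 where 125 were expected, below in 8 of 10. Isl1 lay above expectation with Otx2 and Crx: Otx2 and Isl1 met in 632 where 492 were expected, above in 15 of 17, and Crx and Isl1 in 264 where 226 were expected, above in 10 of 16.

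Control libraries differed with age. Between control libraries 1274 of 13745 genes passed by edgeR's quasi-likelihood test with Benjamini-Hochberg adjustment (9.27%), 917 higher at P5 (6.67%) and 357 lower (2.6%). Among tested genes 7 of 13 bipolar, 11 of 19 progenitor and 6 of 8 Müller glia genes rose, and 6 of 19 genes of the neurogenic state fell. In summed counts, fewer cells of a kind and less RNA per cell cannot be told apart. Median depth per neurogenic cell was 9470, 5526.5, 3938 and 5694 UMIs in P2 controls 1 to 4. In P5 controls 1 to 4 it was 16656, 16284, 7686 and 17277 UMIs. The part of depth in the age differences was not tested.

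Among bipolar genes, Isl1 stood at 26.2, 25.3, 26.8 and 37.6 CPM in P2 controls 1 to 4 and at 141, 201, 112 and 112 CPM in P5 controls 1 to 4, and the ages did not overlap (log2 fold change 2.34 ± 0.43 SE, adjusted p = 0.00153). Of 13 tested bipolar genes 7 rose and 0 fell, namely Isl1, Cabp5, Grm6, Bhlhe23, Prdm8, Lhx4 and Scgn, with a median of 1.77 against 0.00 over all genes. Prdm8 lost its call under 8 of 17 alternatives, DESeq2 among them. Scgn, a calcium sensor of cone bipolar cells, had 0 of 27254477 UMIs at P2, which allows up to 0.110 CPM (3 UMIs over the group), and 201 UMIs at P5. Of those P2 UMIs 17681622 came from P2 control 1, so the bound rests mostly on that library and leaves out the spread between libraries. Bhlhe23, a bHLH factor of rod bipolar cells, had 1 UMI at P2 and 235 at P5. Rods of the P5 controls, as background, held 5.36 CPM of Isl1, below every neurogenic P5 control.

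Markers of other cells were read beside these changes. Between P2 and P5 controls rods went from 6.17 to 14.1 CPM of Cabp5, from 0 to 2.47 CPM of Grm6 and from 0.072 to 0.61 CPM of Scgn. Bipolar cells, as annotated, made up more of the P5 control libraries (log2 ratio of cell numbers 5.89, edgeR adjusted p = 1.37e-06). Summed over the neurogenic cells, the bipolar list ran from 1082 to 2711 CPM in P2 and from 1229 to 1494 CPM in P5 controls, so that its total overlapped between the ages. A large part of this total was Neurod4, at 874 to 2464 CPM in P2 and 618 to 1008 CPM in P5 controls. The total thus says little about the rest of the list. Of 5 tested microglia genes 0 passed, though all 5 had positive values with a median of 2.18. The summed microglia list ran from 5.37 to 17.8 CPM at P2 and from 7.28 to 69.5 CPM at P5, and every gene of it had UMIs in each group, although Tyrobp and Aif1 had none in 1 P2 control and Csf1r none in 1 P5 control. The part of RNA from other cells in the changes with age was not tested.

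The same genes were described by cluster at each age. Isl1 averaged 29.9 ± 7.32 CPM (SD, n = 4) in cluster 4 of P2 controls and 254 ± 119 CPM in that of P5 controls, and 16.0 ± 6.05 and 6.77 ± 4.10 CPM in cluster 11. Car10, a carbonic anhydrase-related gene, averaged 28.5 ± 11.2 and 918 ± 258 CPM in cluster 4. Crym, a thyroid hormone-binding protein, averaged 197 ± 85.4 and 2801 ± 1601 CPM in cluster 11, and Hes1 93.1 ± 59.5 and 493 ± 288 CPM there. In cluster 4, Hes1 averaged 11.1 ± 14.3 and 6.42 ± 6.82 CPM. These values describe, since the clusters were drawn over both ages. The share of cluster 11 was 25.0 ± 2.46% in P2 and 38.0 ± 8.03% in P5 controls (n = 4 each), with overlap and no test.

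Of 19 progenitor genes 11 rose and 1 fell, with a median of 0.98. Crym stood at 65.8, 83.6, 34.7 and 58.6 CPM in P2 and 456, 2551, 714 and 1511 CPM in P5 controls (4.50 ± 0.67), with no overlap. Id3 (3.19 ± 0.53), Hes1 (2.83 ± 0.73) and Ccnd1 (1.57 ± 0.30) rose, and the eye-field homeobox gene Rax fell (-1.37 ± 0.24). Of 8 Müller glia genes 6 rose and 0 fell, Rlbp1 (4.59 ± 0.51) and Apoe (2.87 ± 0.35) among them. Of those that rose, Clu lost its call under 7 of 17 alternatives and Kcnj10 under 4 of 17. The summed Müller glia list ran from 662 to 952 CPM at P2 and from 3160.3 to 5359 CPM at P5. Of the Notch receptors Notch2 rose (3.05 ± 0.55). Of 8 genes listed here as Notch targets 3 rose (Hes1, Hey2 and Id3) and 0 fell. Hes1 lost its call under 3 of 17 alternatives and Hey2 under 3 of 17. The cell cycle lists were counted next, with no test between them. Of 3 D cyclins 3 rose (Ccnd1, Ccnd2 and Ccnd3), and Ccnd2 lost its call under 5 of 16 alternatives. Ccnd1 is counted among the progenitor genes too, as are Hes1 and Id3 of the Notch targets and Slc1a3 and Car2 of the Müller glia genes. Of 16 tested S phase genes 0 rose and 1 fell, Mcm7, which lost its call under 6 of 17 alternatives. Of 14 tested genes of G2 and mitosis 0 rose and 2 fell (Top2a and Cdc20). Top2a lost its call under 8 of 17 alternatives and Cdc20 under 3 of 17. By size the leading genes at P5 were Cryab, Pcp4, Zfp804b, Rlbp1, Car10, Ndnf, Crym and Sntb1. Cryab, a small heat-shock protein, stood at 0.34, 0, 0 and 0.24 CPM in P2 and 281, 274, 37.0 and 43.7 CPM in P5 controls, and progenitors of P5 controls averaged 615 CPM.

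In the neurogenic state list the genes that passed went the other way. Of 19 genes 0 rose and 6 fell (Olig2, Dll3, Atoh7, Dll4, Mfng and Sox11), with a median of -0.70. Atoh7 stood at 132, 103, 148 and 290.4 CPM in P2 and 7.35, 3.40, 16.6 and 2.62 CPM in P5 controls (-4.38 ± 0.49, adjusted p = 1.68e-05) and had the largest fall by the rule of size, before Ndufa4l2, Prdm1, Pkib, Grik3, Kcnc2, Glcci1 and Angpt1. Dll3 stood at 146, 136, 137 and 153 CPM in P2 and 18.7, 16.1, 59.4 and 30.9 CPM in P5 controls (-2.14 ± 0.31, adjusted p = 0.000206). For both genes every P5 control lay below every P2 control. Olig2 stood at 28.6, 27.0, 30.5 and 33.2 CPM in P2 and 14.0, 13.8, 22.2 and 16.9 CPM in P5 controls (-0.78 ± 0.24, adjusted p = 0.0444), without overlap but near the threshold, and its call was lost under 7 of 17 alternatives and that of Sox11 under 3 of 17. The markers Neurog2 (-0.41 ± 0.43, adjusted p = 0.648), Hes6 (-0.70 ± 0.26, adjusted p = 0.105) and Gadd45a (0.22 ± 0.37, adjusted p = 0.811) did not pass.

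Among fate regulators, Prdm1 stood at 238, 234, 198 and 309.7 CPM in P2 and 31.6, 20.2, 74.0 and 42.5 CPM in P5 controls (log2 fold change -2.49 ± 0.36 SE, adjusted p = 0.000175), with no overlap, in the opposite direction to Isl1. Otx2 (-0.62 ± 0.26, adjusted p = 0.169) and Crx (-0.56 ± 0.26, adjusted p = 0.209) did not pass. Of 4 amacrine regulators 3 fell (Ptf1a, Prdm13 and Tfap2a), and Ptf1a went from 232 to 3 UMIs. Ptf1a stood at 8.65, 6.76, 28.2 and 1.22 CPM in P2 and 0.22, 0, 0.27 and 0 CPM in P5 controls, with no overlap between the ages. Tfap2a lost its call under 7 of 16 alternatives and Prdm13 under 5 of 16. The same genes were lower at P5 in rods, which should lack them: Ptf1a averaged 1.46 and 0.032 CPM in rods of P2 and P5 controls, Prdm13 2.16 and 1.04 CPM, and Tfap2a 8.97 and 3.42 CPM. The part of background in these falls was not tested. Of 16 rod genes 0 rose and 1, Casz1 (a zinc-finger factor of rod development), fell, with its call lost under 5 of 17 alternatives. The summed rod list ran from 525 to 1023 CPM at P2 and from 554 to 1075 CPM at P5.

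**Figure D3:**
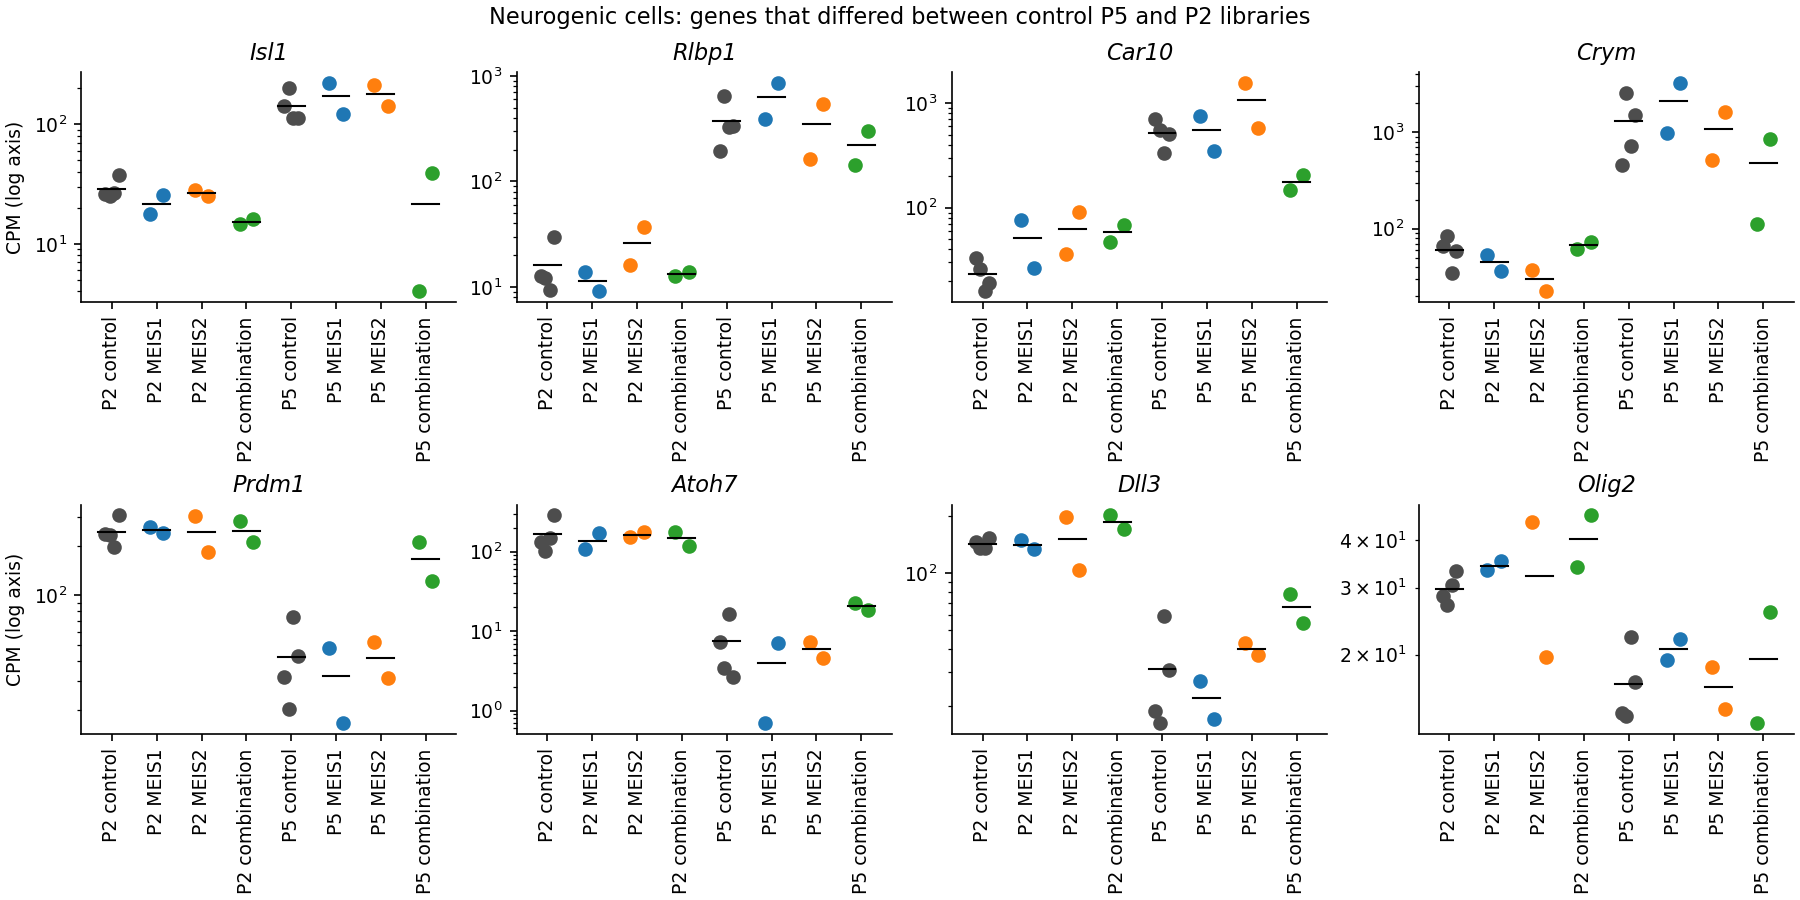
CPM in neurogenic cells (y axis, log scale) for 8 genes by group (x axis), with a point for each library. Isl1, Rlbp1, Car10 and Crym are higher in P5 than in P2 controls, and Prdm1, Atoh7, Dll3 and Olig2 lower.

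Shares of cells differed with age in the same directions for Prdm1 and Isl1. Among cluster 4 cells thinned to 2000 UMIs, a Prdm1 UMI was seen in 37.3%, 37.7%, 26.7% and 40.7% in P2 controls 1 to 4 and in 8.46%, 6.49%, 16.9% and 12.9% in P5 controls 1 to 4. An Isl1 UMI was seen in 4.93%, 7.33%, 4.49% and 7.95% and in 22.4%, 43.2%, 26.7% and 19.8%. The ages did not overlap for either gene. The P5 MEIS1 libraries had Isl1 shares of 42.9% and 29.1% and the P5 MEIS2 libraries of 35.4% and 30.2%. The P5 combination libraries had 0.795% and 10.9%, below every other P5 library, and Prdm1 shares of 36.6% and 32.1%, above every other. This was noticed in the data and not tested. As background, an Isl1 UMI was seen in 0.647% of rods and a Prdm1 UMI in 6.19% of amacrine cells, against 8.31% and 25.5% of all neurogenic cells. Median depth before thinning was 5336 UMIs in rods, 7443 in amacrine cells and 10815 in neurogenic cells.

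**Figure D4:**
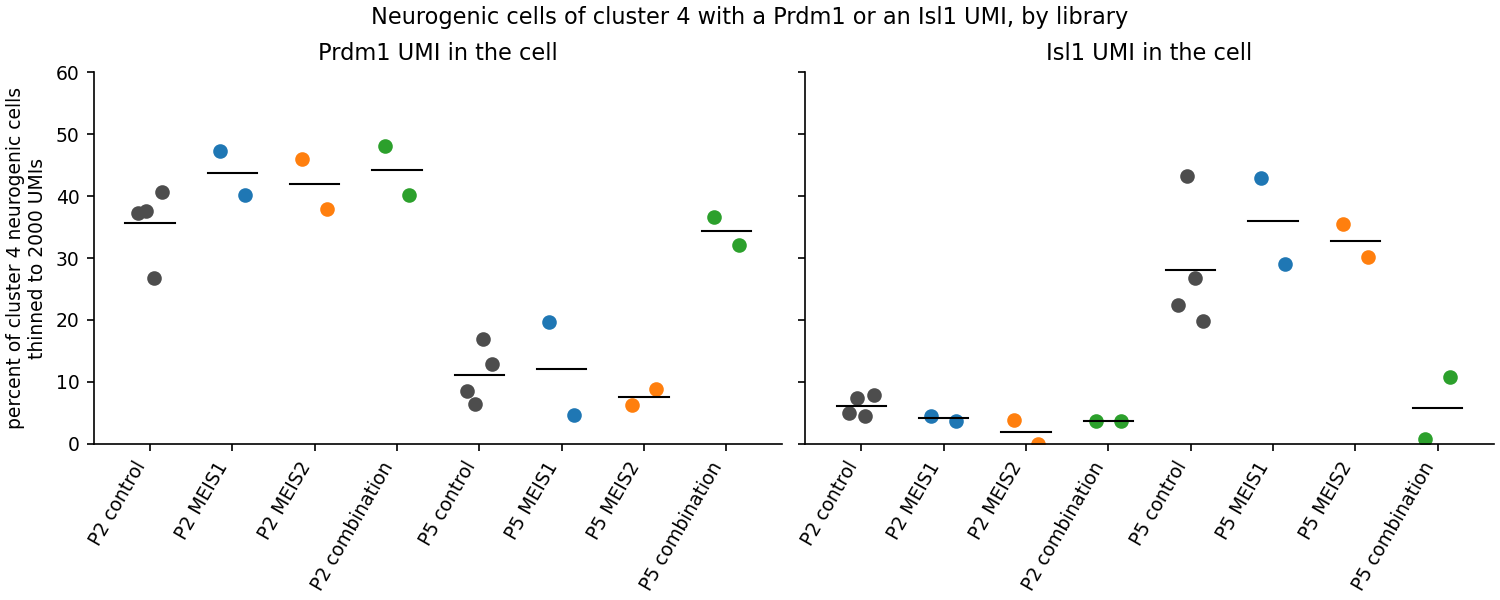
Percent of thinned cluster 4 cells (y axis) with a Prdm1 UMI and with an Isl1 UMI, by group (x axis); each point is a library and each line a group mean. The P5 combination libraries (0.795% and 10.9% with Isl1) lie below the other P5 libraries.

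Few genes passed between construct and control libraries, in comparisons that share the controls of an age. For any MEIS (the mean of the 3 construct groups) at P2, 0 of 13745 genes passed by edgeR (0%), 1477 had an unadjusted p under 0.05, and 122 passed by DESeq2. Where nothing differs, a share of about 0.05 of the genes tested would have an unadjusted p under 0.05. The P2 count depended on single libraries: 513 genes passed without P2 control 1, 683 without P2 MEIS2 1, and 1053 with groups from the barcode prefixes. Where this leaves a construct group with 1 library, its spread is taken from the other groups. The prefixes place P2 combination 2 among the P2 controls, although its Meis1 and Meis2 lay above all libraries labelled P2 control. They place P2 control 1 in the combination group. At P5 1 gene passed (0.00728%), Meis1 itself (2.24 ± 0.32, adjusted p = 0.0179). That call was lost without any 1 of the 4 P5 controls, the P5 MEIS1 libraries or P5 MEIS2 1 (0 genes each). With the replicate number as a block it was lost too (adjusted p = 0.0903), while 8 other genes passed, 7 of them lower. The difference between the P5 and P2 effects passed for 0 genes by edgeR, 0 by DESeq2 and 336 at an unadjusted p under 0.05. That last count is below a share of 0.05 of the genes tested. Of 19 genes of the neurogenic state list none passed at either age by edgeR, with medians of 0.11 at P2 and 0.15 at P5. Neurog2 differed by -0.54 ± 0.39 at P2 and -0.57 ± 0.39 at P5, and Dll3 by 0.15 ± 0.27 and 0.28 ± 0.29, which leaves changes of that width undetected.

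Single constructs were compared after the data had been seen. MEIS1 raised Meis1 alone at P2 (3.83 ± 0.39, 0.00728% of genes) and at P5 (3.89 ± 0.39). With groups from the barcode prefixes neither call held (adjusted p = 0.668 and 0.0532). The prefixes move no P5 library to another group, so at P5 the libraries compared were the same and only the shared spread differed. MEIS2 passed 0 genes at P2 by edgeR, 452 by DESeq2, 1860 at an unadjusted p under 0.05, and 1356 without P2 MEIS2 1, which leaves only the shallow library. At P5 it passed 0 by edgeR, 0 by DESeq2 and 428 at an unadjusted p under 0.05. Meis2 itself thus did not pass by edgeR at either age, although both MEIS2 libraries lay above every control of their age. These counts can therefore leave changes of that size undetected. The combination passed 0 genes at P2 by edgeR, 1 by DESeq2, 527 at an unadjusted p under 0.05, and 433 with groups from the barcode prefixes. MEIS1 had 248 genes at an unadjusted p under 0.05 at P2 and 261 at P5. Among the single constructs and the combination, only MEIS2 at P2 had such a count above a share of 0.05 of the genes tested.

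At P5 the combination passed 3 genes (0.0218%): Meis1 and Meis2, which rose (0.0146%), and Trnp1, which fell. Meis2 lost its call under 7 of 15 alternatives and Meis1 under 5 of 15, and without Scrublet doublets 2 genes passed. Trnp1, a nuclear protein known from cortical progenitors, stood at 82.0, 82.6, 25.0 and 20.1 CPM in P5 controls 1 to 4, at 2.93 and 3.61 CPM in the combination libraries and at 39.5 to 81.7 CPM in the other 4 P5 construct libraries. The combination libraries lay below all other P5 libraries (log2 fold change -4.03 ± 0.60 SE, adjusted p = 0.0233), while the P2 libraries lay at 0 to 1.30 CPM. Prdm1 (213 and 122 CPM, 1.98 ± 0.40, adjusted p = 0.167) and Isl1 (4.03 and 39.0 CPM, -2.77 ± 0.58, adjusted p = 0.169) did not pass. For each of these genes both combination libraries lay outside the range of the P5 controls. The share of all genes for which this held was not counted. The count was 0 without P5 control 2, 0 without P5 combination 1, 1 without P5 control 4, 16 without P5 control 3 and 19 without P5 combination 2, where the lone combination library again takes its spread from other groups. Trnp1 itself lost its call without P5 control 2 (adjusted p = 0.0602), without P5 combination 1 (0.787), without P5 combination 2 (0.0602) and with only the groups compared (0.52). With the replicate number as a block 122 genes passed, the 3 named here included, and 92 of the total were lower. DESeq2 passed 35 genes, 31 of them lower, and over all alternatives tried the count ran from 0 to 122.

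The genes that differed with age placed each construct library by the share of them nearer to the P5 than to the P2 control mean. The P2 construct libraries had 5.26% to 16.0%, apart from P2 MEIS2 2 with 34.9%. P5 MEIS1 and P5 MEIS2 libraries had 82.9% to 95.4%. P5 combination 2 had 80.1% and P5 combination 1 54.7%, so that on this measure the library lay between the ages. Single genes varied: its Crym (113 CPM) lay between the P2 and P5 controls, and so did its Atoh7 (22.7 CPM), while its Isl1 (4.03 CPM) lay below every control of both ages and every other library.

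**Figure D5:**
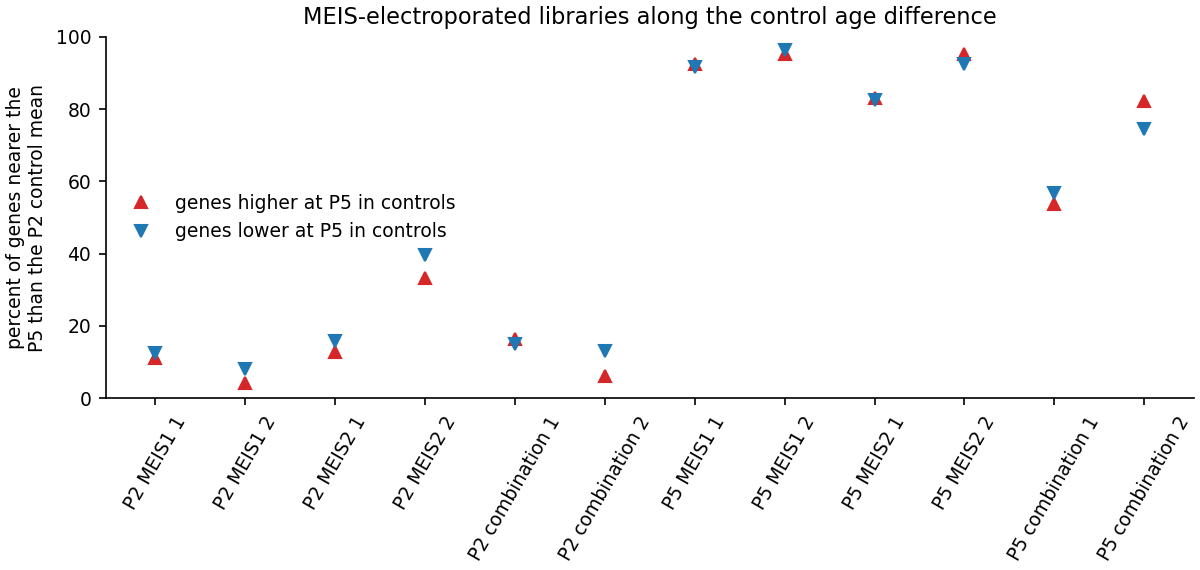
Percent of age-dependent genes nearer to the P5 than to the P2 control mean (y axis) in each construct library (x axis), for genes that rose and that fell with age. P5 combination 1, at 53.9% and 56.9%, lies between the P2 libraries and the other P5 libraries.

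The share of neurogenic cells among all cells was 9.77%, 9.51%, 11.5% and 18.1% in P2 controls 1 to 4 and 4.56%, 8.74%, 15.5% and 9.75% in P5 controls 1 to 4. With any MEIS it differed by 2.52 percentage points at P2 (two-sided exact permutation p = 0.248, adjusted over 12 share tests 0.594) and by 2.65 at P5 (exact p = 0.471, adjusted 0.707). The age difference was -2.59 points (exact p = 0.371, adjusted 0.707). None of these exceeded the spread between libraries. The P5 test did not take same-numbered libraries as pairs. P5 construct libraries numbered 1 had 3.75% (MEIS1), 5.30% (MEIS2) and 17.0% (combination), and those numbered 2 had 16.6%, 16.7% and 14.4%. Among progenitors and neurogenic cells alone, neurogenic cells made up 37.9 ± 4.41% in P2 and 53.2 ± 6.36% in P5 controls, without overlap (15.3 points, exact p = 0.0286, adjusted 0.171). In P5 MEIS1 libraries this share was 43.3% and 44.5%, below every P5 control, and in P5 MEIS2 libraries 63.8% and 63.0%, above every P5 control, which was not tested.

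Cells with Otx2, Crx or Prdm1 and no amacrine regulator made up 85.4 ± 4.99% of thinned neurogenic cells in P2 and 68.1 ± 7.76% in P5 controls (SD, n = 4 each). The ages did not overlap (-17.3 points, two-sided exact permutation p = 0.0286, the smallest that 4 against 4 libraries can give, adjusted 0.343). With any MEIS the share differed by 4.81 points at P2 (exact p = 0.129, adjusted 0.514) and by -1.11 at P5 (exact p = 0.905, adjusted 0.905). Of the 12 share tests none passed after adjustment, and no lone result could have, since the smallest p is 0.00476 for 6 against 4 libraries.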

How the data were processed

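The deposited table holds raw UMI counts for 23260 genes in 79009 cells, which the authors made with Cell Ranger on mm10 with an added GFP locus, per the series design text. Seurat 5 is named in the submitters' processing notes, and cell filters are not given in the sources used here. The authors' deposited cell table gives the type, cluster and library of each cell, its UMI count and its mitochondrial percent. All cell columns mapped to a library (0 not used).

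Counts were summed per library over neurogenic cells (319677 to 17681622 UMIs), and over other types with at least 20 cells. CPM by library uses TMM factors, and CPM by type or cluster does not. An edgeR 4.0.16 model (R 4.3.3) with a mean for each of 8 groups, TMM and filterByExpr gave the contrasts by its two-sided quasi-likelihood test, with Benjamini-Hochberg adjustment and a threshold of 0.05. Errors of fold changes are SE, and shares were tested by exact permutation over libraries. The code was tested on simulated data.

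The cells, gene lists and tests were chosen with earlier results of these data known. Named genes are list genes, the 15 identity genes and, for each test, up to 8 called genes in each direction by fold, among those whose mean log2 CPM reaches 5. Results on some listed genes are not reported here, and the lists were counted without them. Trnp1 lies outside this rule and was chosen after its values were seen. Scrublet (scanpy 1.11.5, expected 6%) marked 368 neurogenic cells but under 0.5% of cells in some libraries, so removing the top 6% of scores was added as an alternative. Other alternatives were DESeq2 1.42.0, no TMM, no filter, at least 50 cells, other thinning, barcode prefixes as groups, the replicate block, and leaving out each library. At P5 all 6 same-numbered pairs of a control and a construct library deviated together (r 0.19 to 0.43, from the data and not the labels), so values with the block stand beside P5 results they change. In a group of 2 libraries the deviations from the mean mirror each other, so these pairs are not independent. The block was thus chosen from the same data and only at P5.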

Additional observations from a re-analysis of the deposited data

Results flagged for a closer look

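In groups of 4 libraries, a library was picked out where its gap to the nearest other exceeded 0.829 of the range of the group. Chance picks out about 1 in 20 of the 46 groups examined. Among P2 controls, P2 control 4 was the highest for Isl1, at 37.6 CPM against 25.3 to 26.8 CPM, and for Neurod1, at 2729 CPM against 1086 to 1362 CPM. Among P5 controls, P5 control 2 was the lowest for Neurod1, at 219.6 CPM against 684 to 741 CPM. P5 control 1 was the highest for GFP, at 35755 CPM against 5657 to 8651 CPM.

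Hes6 lay below the P2 control mean in all 6 P2 construct libraries, by -135 CPM on average, and above the P5 control mean in all 6 P5 construct libraries, by 76.8 CPM. Each difference was smaller without 1 library. Without P2 control 4 the P2 difference was -17.9 CPM and 3 of 6 construct libraries lay above the control mean, and without P5 combination 1 the P5 difference was 25.5 CPM and 5 of 5 lay above it; both were computed after the data had been seen. The test of the difference between the ages did not pass for Hes6 (log2 difference 0.56 ± 0.33 SE, edgeR adjusted p = 1.000).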

How the results depend on the processing

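The age count stayed between 856 and 1893 genes under all alternatives. For any MEIS at P2 the count was 122 with DESeq2, 1 without TMM, 1 without the filter, 1 without Scrublet doublets, 1053 with barcode prefixes, 1 without P5 combination 1 and P2 MEIS2 2, and 0 to 683 with a library left out. At P5 it was 0 without the top Scrublet scores, 0 with prefixes, 0 with only the groups compared and 0 to 2 with a library left out. MEIS1 with prefixes gave 0 at P2 and 0 at P5, where prefixes move no library to another group. MEIS2 at P2 gave 452 with DESeq2, 19 without TMM, 47 without the filter and 0 to 1356 with a library left out, and at P5 0 to 3. The combination at P2 gave 1 with DESeq2, 1 without the filter, 433 with prefixes and 0 to 2 with a library left out. At P5 it gave 35, 33 and 1 in the same order, 0 with only the groups compared and 0 to 19 with a library left out. The causes were not tested.

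With the replicate number as a block, any MEIS at P5 gave 8 genes, the P5 combination 122 and age 1520. In their deviations from the group means, same-numbered libraries correlated at -0.15 to 0.45 at P2, 0.07 to 0.47 at P5 (0.19 to 0.43 between control and construct libraries) and -0.08 to 0.23 between the controls of the ages. At P2 and between the ages not every pair was above 0.1, so there the numbers were not taken as pairs. At P5 every pair of a control and a construct library was above 0.1, but not every pair of construct libraries. The deviations of a group of 2 libraries mirror each other, so the pairs are not independent. Without the block the P5 counts were 1 (Meis1, which the block loses) and 3.

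Shares that changed sign were the age difference in neurogenic cells (15.3 points among progenitors and neurogenic cells) and cells with Otx2, Crx or Prdm1 at P5 (0.550 without the top scores, -4.15 to 3.22 with a library left out). So did cells with amacrine regulators at P2 (-0.108 at 1000 UMIs, -0.801 without thinning, -0.245 with 1 UMI more, -0.294 to 0.520 with a library left out). G2 and mitosis cells did so at P2 (-0.225 at 1000 UMIs, -0.113 to 0.389 with a library left out), at P5 (-0.116 to 0.195) and with age (1.71 without thinning).

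Of 1100 gene results for age 984 kept call and direction. Signs changed with age for Neurog2 (-0.66 to 0.24 with a library left out, positive without P2 control 4) and Gadd45a (-0.31 to 0.41, negative without P5 control 1). The fits of cells with amacrine regulators, and of G2 and mitosis cells after thinning, were not run for want of libraries with 20 cells of each class, and only the unthinned G2 and mitosis fit gave a count.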
